A study of Mus musculus with 8 samples.

Results

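The genes of the endoplasmic reticulum (ER) chaperones and the unfolded protein response were followed in colon RNA of germ-free mice colonized with Candida. The list held 33 genes, named by symbol and looked up in a count table of 52636 Ensembl gene identifiers. Each symbol matched 1 identifier, and all 33 genes were among the 16107 that passed the filter on low counts. The genes were separated into a chaperone arm of 28 genes, whose transcription is known to be raised by ATF6 and XBP1 or which encode that machinery itself, and an ATF4 arm of 5 genes (Atf4, Ddit3, Trib3, Asns and Chac1). RNA was sequenced in bulk from colon of wild-type female C57BL/6 animals aged 6 weeks in gnotobiotic isolators. Colonization was by gavage, with C. albicans SC5314 in 3 libraries and with C. tropicalis MYA-3404 in 2, and the remaining 3 libraries are labelled control. All groups were sampled at day 30. Libraries are called by group and replicate number, such as C. albicans 3.

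The labels do not say what the control animals were given, whether each library came from its own mouse, or which layers of the colon wall were taken, and the spread behind each p-value is that between libraries and may be technical. They give no isolator, cage or hour of collection, and these cannot be told apart from the groups. Library totals ran from 16195376 to 19761098 counts, and no library stood apart by depth. The goblet cell, colonocyte and epithelium lists, 10 markers each, were all detected above the filter, with summed levels of 13833 to 23108 CPM (read counts scaled to the library total) for goblet cells and 14804 to 21188 CPM for epithelium. Smooth muscle markers varied most, from 3922 to 29006 CPM, and the libraries spread along a leading principal component of 48.7% of the variance on which control 3 lay close to C. tropicalis 1 and C. tropicalis 2. In bulk RNA, fewer cells of a type and less RNA per cell cannot be told apart.

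Secreted and membrane proteins fold in the ER, where chaperones such as BiP (encoded by Hspa5) hold them, oxidoreductases form their disulfide bonds, and ER-associated degradation removes those that do not fold. When unfolded proteins accumulate, IRE1 splices the mRNA of XBP1 and ATF6 is cleaved, and both factors raise transcription of the folding machinery, while PERK slows translation through eIF2α and favours translation of ATF4, a regulator of amino acid and redox genes. In the gut, goblet cells secrete large amounts of mucin and carry IRE1β, an epithelial form of IRE1 encoded by Ern2. Gene counts show neither spliced Xbp1 mRNA, cleaved ATF6 nor translated ATF4, so the levels below are of total mRNA.

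Promoter windows are shown because ATF6, XBP1 and ATF4 act through elements in promoters. The arms were set as lists of genes and not by these elements, with the chaperone arm holding all genes outside the ATF4 arm. RefSeq windows on build GRCm38.p6, from 250 bases before to 50 after an annotated start site, were found for 28 of the 33 genes, 23 of them in the chaperone arm and 5 in the ATF4 arm. Hyou1, Manf, Derl1, Ern2 and Atf6 had no entry. The ER stress element (ERSE), which ATF6 and XBP1 are known to bind, was searched on both strands as CCAAT, any 9 bases, CCACG. The window of Hspa5 lies at chr2:34771840-34772139 on the plus strand, that of Creld2 at chr15:88819396-88819695 on the plus strand, and that of Chac1, an ATF4 target, at chr2:119350992-119351291 on the plus strand. Capitals mark the ERSE in Hspa5 and Creld2 and, in Chac1, the C/EBP-ATF composite element TGATGNAA that ATF4 is known to bind, read here on the opposite strand.
Hspa5: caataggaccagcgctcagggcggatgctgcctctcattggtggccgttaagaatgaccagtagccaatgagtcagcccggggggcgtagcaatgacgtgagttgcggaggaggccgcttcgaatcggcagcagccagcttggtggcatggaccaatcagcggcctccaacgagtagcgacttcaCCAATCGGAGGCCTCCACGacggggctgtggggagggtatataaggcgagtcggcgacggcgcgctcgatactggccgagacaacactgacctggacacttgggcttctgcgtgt
Creld2: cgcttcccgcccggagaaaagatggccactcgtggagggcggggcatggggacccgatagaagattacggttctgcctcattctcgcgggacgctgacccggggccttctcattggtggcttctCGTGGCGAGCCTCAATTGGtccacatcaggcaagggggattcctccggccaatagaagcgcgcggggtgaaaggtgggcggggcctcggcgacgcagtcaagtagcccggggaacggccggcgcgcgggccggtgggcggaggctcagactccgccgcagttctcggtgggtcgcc
Chac1: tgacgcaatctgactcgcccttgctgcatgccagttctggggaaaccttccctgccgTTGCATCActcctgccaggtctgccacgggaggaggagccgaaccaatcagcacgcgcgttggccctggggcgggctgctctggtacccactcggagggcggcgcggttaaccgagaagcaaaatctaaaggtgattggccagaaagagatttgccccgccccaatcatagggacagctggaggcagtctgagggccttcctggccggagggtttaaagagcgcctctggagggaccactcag

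An ERSE was found in the windows of 9 of the 28 matched genes, all of the chaperone arm, against 37 of 27025 genes (0.137%) in the whole promoter table. Hsp90b1 held 2 of them. With the start site at 0, they lay between -212 and -26, as the map of motif positions shows. The matches of 5 genes described below read as follows in the direction of each gene, with CGTGG first and ATTGG last where the element is on the opposite strand.
Hspa5: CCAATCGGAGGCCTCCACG
Creld2: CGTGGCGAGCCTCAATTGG
Syvn1: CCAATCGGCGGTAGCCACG
Calr: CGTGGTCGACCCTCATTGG
Pdia6: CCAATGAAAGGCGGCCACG
The shorter ERSE-II, searched on both strands as ATTGG, any base, CCACG, was found in Dnajb11 (ATTGGCCCACG) and Herpud1 (ATTGGGCCACG), against 12 of 27025 genes (0.0444%). The XBP1 element TGACGTGG, searched on both strands, was found in 0 of the 28 genes and in 0.714% of all genes. The composite element was found in Asns, Chac1 and Trib3 of the ATF4 arm and in Herpud1, against 4.51% of all genes. No match overlapped another in these windows. These are matches of letters and not sites shown to be bound.

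**Figure D1:**
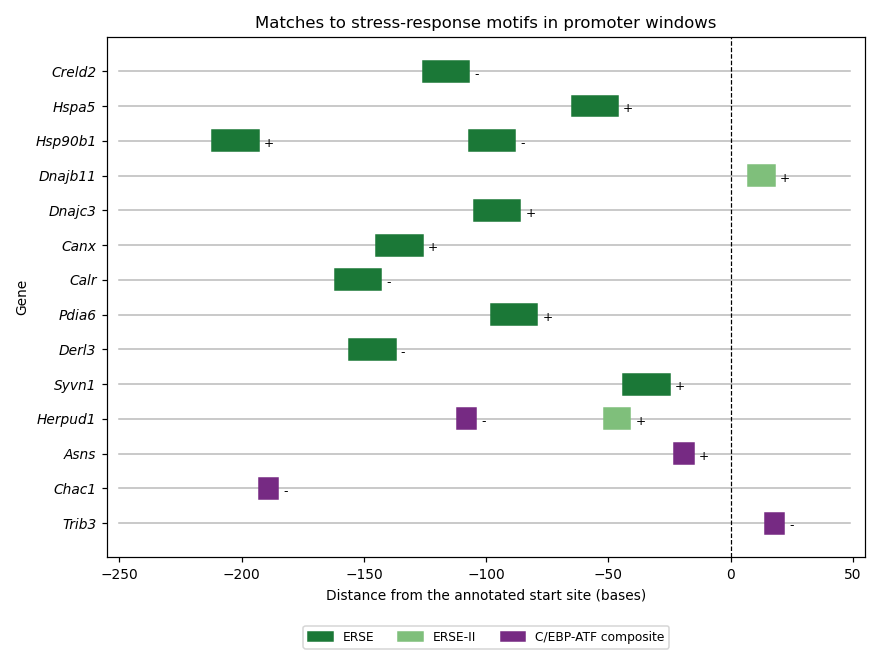
Positions of motif matches in promoter windows of the 14 genes with a match, by distance from the annotated start site in bases; dark green is ERSE, light green ERSE-II and purple the C/EBP-ATF composite, and + or - gives the strand of the match. ERSE matches lie upstream of the start in chaperone-arm genes, and the purple matches lie in Asns, Chac1, Trib3 and Herpud1.

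Levels of the 33 genes spanned a wide range. Per kilobase of exon, the mean over the 8 libraries was highest for Calr (235 CPM per kb), P4hb (163), Pdia3 (135), Hspa5 (111) and Herpud1 (101). It was lowest for Trib3 (0.679 CPM per kb), Chac1 (0.777) and Derl3 (1.72). Among the sensors, Ern2 stood at 34.6 CPM per kb, Ern1 at 5.60 and Atf6 at 4.16. Per length, the epithelial IRE1 was therefore at a higher level than the widely expressed form in each group mean (34.3 with C. albicans, 38.4 with C. tropicalis and 32.4 in control, against 5.54, 6.24 and 5.23 for Ern1).

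**Figure D2:**
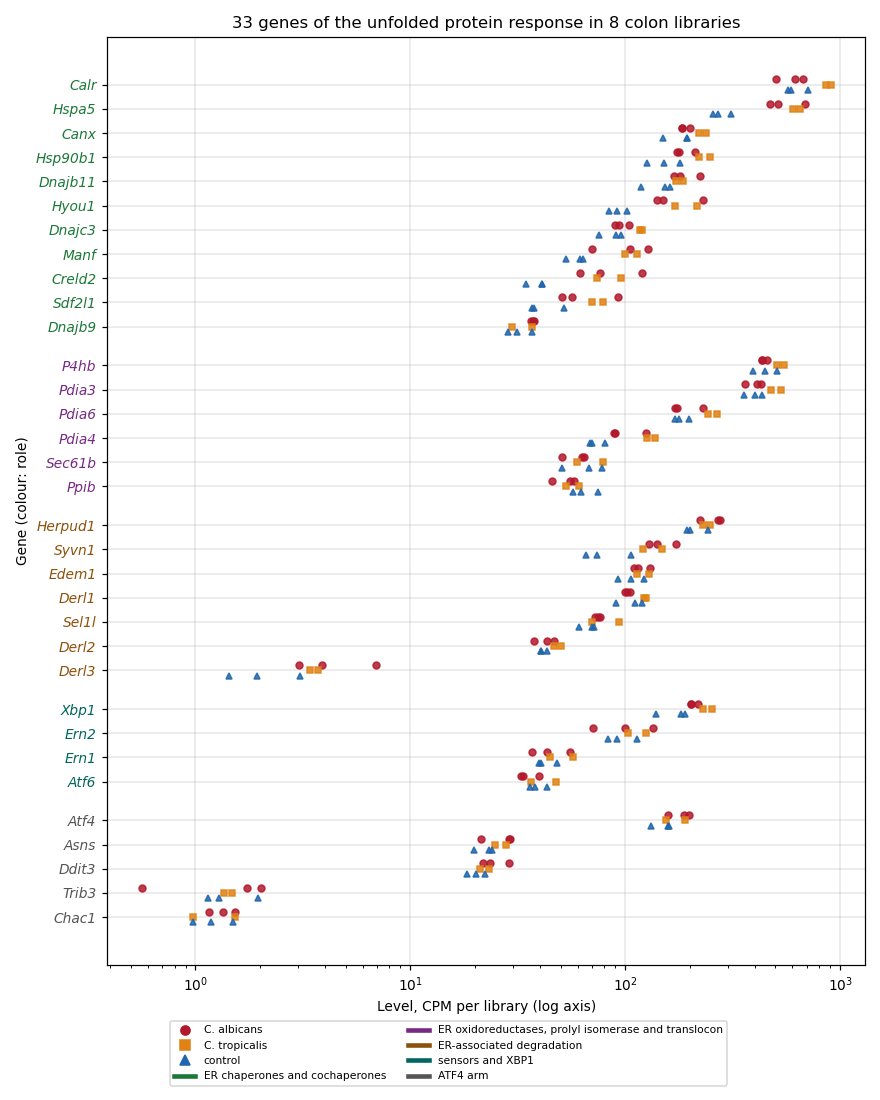
Level of each of the 33 genes in each of the 8 libraries, in CPM on a log axis, grouped by role; circles are C. albicans, squares C. tropicalis and triangles control. Hspa5, Hyou1, Manf, Creld2, Syvn1 and Pdia4 have all 5 colonized libraries to the right of all 3 control libraries, while the ATF4-arm genes overlap.

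With C. albicans, the differences from control were largest in the chaperones Creld2, Hspa5 and Hyou1 and in Derl3, while most oxidoreductases and the sensors overlapped control. Pdia4 was the oxidoreductase whose libraries all lay above control. Of the 33 genes, 26 had a log2 fold change above 0 (48.2% of all genes did), and 9 had groups that did not overlap, all of them higher (9.82% of all genes were higher in this way and 9.57% lower). None passed an adjusted p of 0.05 (0 of 33, with 0.0435% of all genes passing), and 9 were higher at an unadjusted p under 0.05 (9.13% of all genes were) and 0 lower (6.31% of all genes) by edgeR's quasi-likelihood test. The median log2 fold change was 0.14 in the chaperone arm, 0.24 in the ATF4 arm and -0.016 over all genes. By role, it was 0.40 for chaperones and cochaperones, -0.011 for oxidoreductases and their neighbours, 0.15 for ER-associated degradation and 0.08 for the sensors with Xbp1. Calls depended on 1 library and on the tool. Without C. albicans 1 edgeR called 4 genes (Creld2, Hspa5, Hyou1 and Manf), and the share of all genes called in that fit is not given. DESeq2 on all libraries called these 4 and Syvn1 (5 of 33, against 1.71% of the genes it fitted). DESeq2 fitted 26954 genes, against 16107 for edgeR, and these include low-count genes that the edgeR filter removed. All 33 genes passed that filter, so shares of DESeq2 calls are over an unlike set in each comparison. Limma-voom, also tried, called 0 of the 33 genes in any comparison. The chaperone-arm median was 0.25 without control 2, and the ATF4-arm median was 0.39 without C. albicans 1 and 0.16 without control 3.

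With C. tropicalis, which was set against the same 3 control libraries, Hspa5, Creld2, Hyou1 and Manf again lay above control, and so did Calr, Canx, Hsp90b1, Pdia3 and Pdia6. In all, 31 of the 33 genes had a log2 fold change above 0 (47.9% of all genes did), and 19 had C. tropicalis libraries that both lay above all controls (16% of all genes did) and 0 had both below (16.5% of all genes). Again 0 genes passed an adjusted p of 0.05 (0.031% of all genes passed), with 14 higher at an unadjusted p under 0.05 (7.33% of all genes) and 0 lower (8.05% of all genes) by edgeR. The median log2 fold change was 0.36 in the chaperone arm and 0.13 in the ATF4 arm, against -0.019 over all genes. By role, it was 0.62 for chaperones and cochaperones, 0.29 for oxidoreductases and their neighbours, 0.22 for ER-associated degradation and 0.25 for the sensors with Xbp1. DESeq2 called 5 genes (Creld2, Hspa5, Hyou1, Manf and Pdia4, against 1.41% of the genes it fitted). Without control 3 edgeR called Hspa5, and the share of all genes called in that fit is not given. Without C. tropicalis 1 the ATF4-arm median was 0.32. That median was 0.05 without C. tropicalis 2, 0.06 without control 3, 0.20 without control 1 and 0.22 without control 2.

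For any Candida, the mean of both colonized groups against control, 8 genes had all 5 colonized libraries above all 3 controls (3.61% of all genes did): Hspa5, Dnajb11, Hyou1, Creld2, Manf, Pdia4, Syvn1 and Xbp1. All are in the chaperone arm, and 0 genes lay below control in this way (3.08% of all genes did). A log2 fold change above 0 was found for 29 of 33 (45.9% of all genes), 12 genes were higher at an unadjusted p under 0.05 (6.25% of all genes) and 0 lower (5.49%), and 0 passed an adjusted p of 0.05 by edgeR (0.0497% of all genes passed). The median was 0.22 in the chaperone arm, 0.21 in the ATF4 arm and -0.028 over all genes, so the arms' medians were alike here although the largest differences all fell in the chaperone arm. DESeq2 called 7 genes (Creld2, Hspa5, Hyou1, Manf, Pdia4, Sdf2l1 and Syvn1, against 1.1% of the genes it fitted). The chaperone-arm median was 0.34 without control 2.

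**Figure D3:**
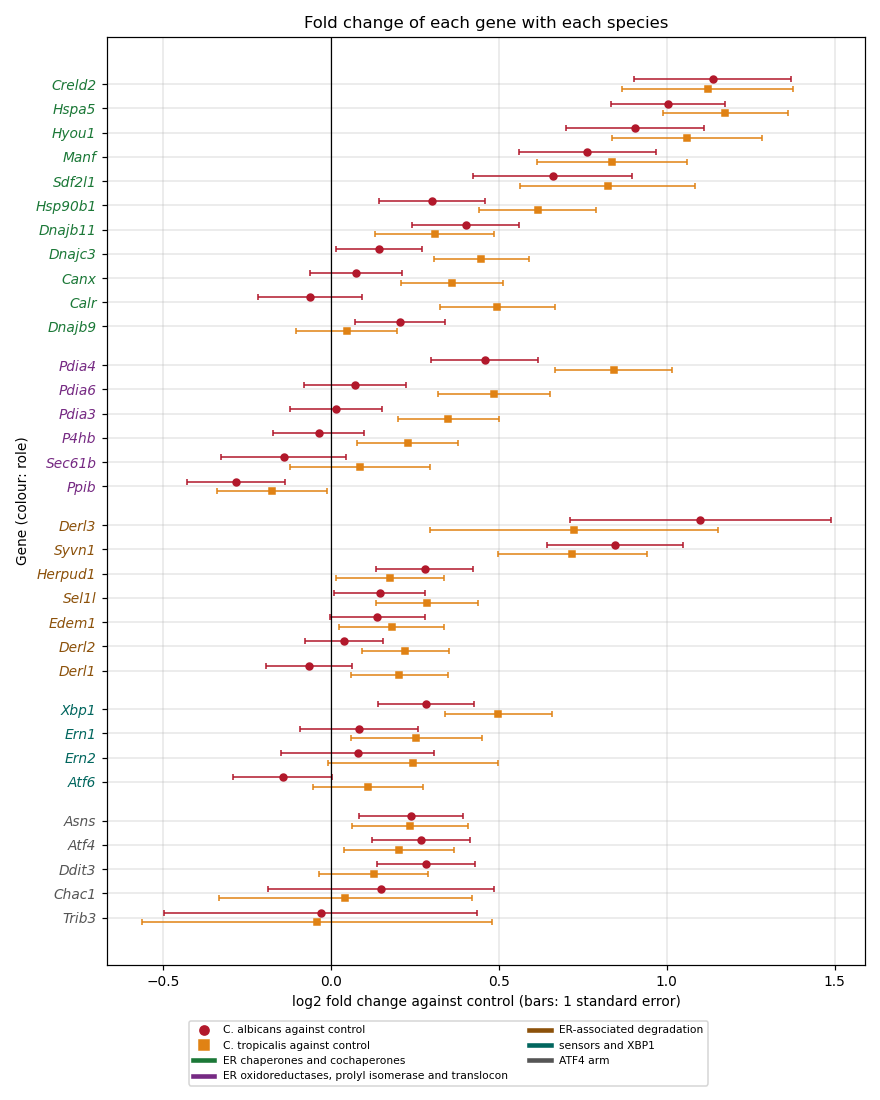
log2 fold change of each gene with C. albicans (circles) and with C. tropicalis (squares) against the same 3 control libraries, with bars of 1 standard error, grouped by role. Creld2, Hspa5, Hyou1, Manf, Syvn1 and Pdia4 lie right of 0 with both species. Calr, Pdia3 and Pdia6 lie right of 0 mainly with C. tropicalis, and the ATF4-arm bars reach towards or across 0.

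Among the chaperones, Hspa5, the ER's HSP70 and the main brake on all the sensors, had 473, 514 and 689.6 CPM with C. albicans and 651 and 605 CPM with C. tropicalis, against 269, 311 and 256 CPM in control. Every colonized library stood above every control library. The log2 fold change was 1.004 ± 0.17 (SE) with C. albicans (2.01-fold, edgeR adjusted p = 0.0929) and 1.17 ± 0.19 with C. tropicalis (2.26-fold, adjusted p = 0.104). For any Candida it was 1.09 ± 0.16 (adjusted p = 0.0670), the smallest adjusted p of the 33 genes. Over the alternatives the adjusted p for any Candida ran from 3.48e-08 by DESeq2 to 0.316 without C. tropicalis 1, with 0.00788 in edgeR with no filter on low counts and 0.0264 when the fit took in a smooth muscle score.

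Creld2, a luminal protein induced by ER stress, had 61.4, 76.7 and 119 CPM with C. albicans and 95.4 and 74.3 CPM with C. tropicalis, against 41.1, 41.2 and 34.7 CPM in control. The groups did not overlap, and C. albicans 3 was the highest library. Its log2 fold change was 1.14 ± 0.23 with C. albicans (adjusted p = 0.133) and 1.12 ± 0.26 with C. tropicalis (adjusted p = 0.165). Hyou1, a large HSP70 relative that exchanges nucleotide on BiP, had 141, 149 and 231 CPM with C. albicans and 216 and 170.4 CPM with C. tropicalis, against 84.4, 102 and 91.8 CPM in control. Its groups did not overlap either, with a log2 fold change of 0.98 ± 0.19 for any Candida (adjusted p = 0.134).

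Manf, a small secreted ER protein that stabilizes BiP's hold on its clients, had 70.2, 105 and 127 CPM with C. albicans and 99.4 and 113 CPM with C. tropicalis, against 61.5, 63.7 and 53.3 CPM in control. All colonized libraries lay above control, C. albicans 1 only narrowly, and the log2 fold change for any Candida was 0.80 ± 0.19 (adjusted p = 0.206). Part of Manf's exons overlap Dcaf1 on the opposite strand and Rbm15b on its own, and the library kit does not keep strand. Sdf2l1, a partner of ER HSP40 proteins, averaged 66.5 ± 22.7 CPM with C. albicans (SD, n = 3) and 74.5 ± 6.16 CPM with C. tropicalis (n = 2), against 42.1 ± 8.42 CPM in control (n = 3). Its C. albicans libraries overlapped control, since C. albicans 2 had 50.8 CPM and control 2 had 51.8 CPM.

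Hsp90b1, the ER's HSP90, was highest with C. tropicalis. It had 175, 178 and 211 CPM with C. albicans and 221 and 247 CPM with C. tropicalis, against 180.2, 151 and 126 CPM in control. C. tropicalis lay above both other groups, and C. albicans overlapped control at control 1. The log2 fold change was 0.62 ± 0.17 with C. tropicalis (adjusted p = 0.218) and 0.30 ± 0.16 with C. albicans (adjusted p = 0.377), where it was 0.18 without control 3. Dnajc3, a cochaperone also known as p58IPK, had 93.6, 90.1 and 104 CPM with C. albicans and 120.1 and 117 CPM with C. tropicalis, against 90.2, 95.3 and 75.2 CPM in control, so here too C. tropicalis stood apart and C. albicans did not. Of the HSP40 cochaperones, Dnajb11 averaged 191 ± 27.6 CPM with C. albicans and 179 ± 9.87 CPM with C. tropicalis, against 144 ± 22.6 CPM in control, with no overlap. Dnajb9, a target of spliced XBP1, averaged 37.1 ± 0.778 CPM with C. albicans and 33.2 ± 4.84 CPM with C. tropicalis, against 32.2 ± 4.20 CPM in control, and its groups overlapped in both comparisons.

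The lectin chaperones, which bind glycoproteins, were highest with C. tropicalis, and a difference between them and BiP was not tested. Of all genes, 23.4% had both C. tropicalis libraries above all C. albicans libraries. Calr had 618, 506 and 669.7 CPM with C. albicans and 856 and 904 CPM with C. tropicalis, against 589.9, 709 and 573 CPM in control. The C. albicans and control libraries were intermixed, and both C. tropicalis libraries lay above all the others. The log2 fold change was -0.06 ± 0.15 with C. albicans (adjusted p = 0.856) and 0.50 ± 0.17 with C. tropicalis (adjusted p = 0.265). Canx, the membrane-bound relative, had 183, 183 and 199 CPM with C. albicans and 221 and 238 CPM with C. tropicalis, against 194, 193 and 149.9 CPM in control, with C. tropicalis again above all other libraries.

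Of the oxidoreductases, which make and reshuffle disulfide bonds, Pdia4 separated all colonized libraries from control, and Pdia3 and Pdia6 separated C. tropicalis from both other groups. Pdia4 had 89.4, 88.3 and 125 CPM with C. albicans and 137 and 126 CPM with C. tropicalis, against 70.4, 80.9 and 68.9 CPM in control, with C. albicans 1 and C. albicans 2 the nearest to control. Its log2 fold change was 0.46 ± 0.16 with C. albicans (adjusted p = 0.263) and 0.84 ± 0.17 with C. tropicalis (adjusted p = 0.151). Pdia6 had 175, 169.6 and 230.2 CPM with C. albicans and 242 and 268 CPM with C. tropicalis, against 177, 199 and 170.2 CPM in control. Pdia3, the partner of calreticulin and calnexin, had 410.4, 361 and 429 CPM with C. albicans and 476 and 534 CPM with C. tropicalis, against 401, 431 and 356 CPM in control. In both genes C. tropicalis was above the other groups, which overlapped.

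P4hb, which encodes PDI itself, averaged 440.0 ± 12.8 CPM with C. albicans and 529 ± 26.8 CPM with C. tropicalis, against 451 ± 58.2 CPM in control, where control 2 had 511 CPM. Ppib, a prolyl isomerase, was the gene with the lowest fold change of the 33, at 53.0 ± 6.40 CPM with C. albicans and 57.2 ± 5.72 CPM with C. tropicalis, against 64.5 ± 8.93 CPM in control. Its log2 fold change for any Candida was -0.23 ± 0.13 (adjusted p = 0.519), and 825 bases of its exons overlap Snx22 on the opposite strand. Sec61b, a subunit of the channel through which proteins enter the ER, averaged 59.4 ± 7.47 CPM with C. albicans and 69.5 ± 13.5 CPM with C. tropicalis, against 65.5 ± 13.6 CPM in control. Neither gene separated the groups.

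In ER-associated degradation, Syvn1, the ubiquitin ligase HRD1, had the smallest p for any Candida, and Derl3 the largest log2 fold change. Syvn1 had 129, 140.2 and 173 CPM with C. albicans and 149 and 121 CPM with C. tropicalis, against 73.6, 66.0 and 106 CPM in control. All colonized libraries lay above control, with control 3 the nearest, and the log2 fold change was 0.84 ± 0.20 with C. albicans (adjusted p = 0.177) and 0.72 ± 0.22 with C. tropicalis (adjusted p = 0.240). Syvn1 shares 91 exon bases with Mrpl49 on the opposite strand. Sel1l, the adaptor of HRD1, averaged 74.4 ± 2.07 CPM with C. albicans and 82.0 ± 16.7 CPM with C. tropicalis, against 67.3 ± 5.64 CPM in control, a smaller difference than that of its partner. Herpud1, which recruits clients to that ligase, averaged 257 ± 28.9 CPM with C. albicans and 239 ± 13.3 CPM with C. tropicalis, against 212 ± 27.2 CPM in control, and its groups overlapped.

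Edem1, a lectin that takes glycoproteins out of the folding cycle, averaged 118 ± 10.6 CPM with C. albicans and 121 ± 11.4 CPM with C. tropicalis, against 107 ± 15.0 CPM in control, and its groups overlapped. Derl3, an inducible derlin at a low level that was chosen for library values after they were seen, had 6.91, 3.04 and 3.90 CPM with C. albicans and 3.71 and 3.40 CPM with C. tropicalis, against 1.94, 1.43 and 3.07 CPM in control. Its log2 fold change was 1.10 ± 0.39 with C. albicans (adjusted p = 0.264), with C. albicans 2 just below control 3. The other derlins, membrane proteins of the channel out of the ER, were at higher and steadier levels. Derl1 averaged 102 ± 2.57 CPM with C. albicans and 124 ± 1.77 CPM with C. tropicalis, against 107 ± 15.0 CPM in control. Derl2 averaged 42.7 ± 4.52 CPM with C. albicans and 48.4 ± 2.47 CPM with C. tropicalis, against 41.5 ± 1.65 CPM in control. Both C. tropicalis libraries were above all controls for each of these derlins.

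Of the sensors and their factor, Xbp1 alone had colonized libraries that all lay above control. It had 218, 203 and 202 CPM with C. albicans and 252 and 229.7 CPM with C. tropicalis, against 139.6, 189.8 and 182 CPM in control. The log2 fold change was 0.28 ± 0.14 with C. albicans (adjusted p = 0.367) and 0.50 ± 0.16 with C. tropicalis (adjusted p = 0.249), and without control 1 it was 0.16 with C. albicans. Ern1, the widely expressed IRE1, had 55.6, 36.9 and 43.5 CPM with C. albicans and 57.4 and 44.5 CPM with C. tropicalis, against 48.0, 39.8 and 40.4 CPM in control, with overlap on both sides. Ern2 had 134, 70.7 and 100.2 CPM with C. albicans and 125 and 103 CPM with C. tropicalis, against 91.7, 83.1 and 114 CPM in control, and its C. albicans libraries spread on both sides of control. Atf6 had 39.9, 32.6 and 33.5 CPM with C. albicans and 47.7 and 36.5 CPM with C. tropicalis, against 37.9, 43.2 and 35.9 CPM in control. For any Candida the log2 fold changes were 0.17 ± 0.16 for Ern1 (adjusted p = 0.705), 0.16 ± 0.21 for Ern2 (0.790) and -0.02 ± 0.13 for Atf6 (0.974).

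In the ATF4 arm, 0 of 5 genes had an unadjusted p under 0.05 by edgeR in any of the comparisons. Of all genes, 5.49% to 14.4% did in a given direction of a comparison. None of the 5 had all colonized libraries above control (3.61% of all genes did) or below it (3.08%). In a list of 5 genes, 0 lies near these shares. Atf4 had 158, 198 and 187 CPM with C. albicans and 155 and 191 CPM with C. tropicalis, against 158, 159.9 and 132 CPM in control. The overlap was through C. albicans 1 and C. tropicalis 1, and the log2 fold change for any Candida was 0.24 ± 0.13 (adjusted p = 0.518). Ddit3, which encodes the pro-apoptotic factor CHOP, had 21.7, 23.5 and 28.7 CPM with C. albicans and 21.0 and 23.2 CPM with C. tropicalis, against 22.2, 20.3 and 18.3 CPM in control. Its log2 fold change was 0.28 ± 0.15 with C. albicans (adjusted p = 0.372) and 0.13 ± 0.16 with C. tropicalis (adjusted p = 0.733), and its exons overlap those of Mars by 68 bases. Asns, asparagine synthetase, had 21.4, 29.2 and 28.7 CPM with C. albicans and 24.8 and 27.9 CPM with C. tropicalis, against 23.2, 24.1 and 19.8 CPM in control. Both C. tropicalis libraries were above control, and C. albicans 1 was not.

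Trib3, a pseudokinase that restrains ATF4 signalling, and Chac1, which degrades glutathione, were at about the lowest levels of the 33 genes. Trib3 had 0.562, 1.73 and 2.01 CPM with C. albicans and 1.48 and 1.36 CPM with C. tropicalis, against 1.14, 1.97 and 1.29 CPM in control. Chac1 had 1.35, 1.52 and 1.16 CPM with C. albicans and 0.971 and 1.53 CPM with C. tropicalis, against 0.971, 1.49 and 1.18 CPM in control. The groups overlapped for both genes, and the standard errors of their log2 fold changes for any Candida were wide, at 0.42 for Trib3 and 0.31 for Chac1. A count of 0 would allow up to 0.152 to 0.185 CPM depending on the library, for counting error only.

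Between the species, C. tropicalis against C. albicans, the chaperone-arm median was 0.17 and the ATF4-arm median -0.07, against 0.04 over all genes. A log2 fold change above 0 was found for 22 of 33 genes (53.7% of all genes), and for 0 of 5 in the ATF4 arm. The ATF4-arm median turned on single libraries: it was 0.08 without C. tropicalis 1, -0.22 without C. tropicalis 2, -0.19 without C. albicans 1 and 0.0010 without C. albicans 2. All 10 genes whose groups did not overlap were higher with C. tropicalis (23.4% of all genes were higher in this way and 22.4% lower): Hsp90b1, Calr, Canx, Dnajc3, Pdia3, Pdia4, Pdia6, P4hb, Derl1 and Xbp1. The largest difference was that of Calr, at 0.56 ± 0.17 (1.47-fold, adjusted p = 0.102 by edgeR), and Pdia6 followed at 0.41 ± 0.17 (adjusted p = 0.184). These were the 2 genes with an unadjusted p under 0.05, against 8.83% of all genes higher at that level and 14.4% lower, and 0 genes passed an adjusted p of 0.05 (0% of all genes did). The count of higher genes was thus near the share of all genes by groups apart, and not above it by unadjusted p. DESeq2 called Calr (adjusted p = 0.0277) and no other of the 33, against 6.5% of the genes it fitted, and over all alternatives Calr's adjusted p ran up to 0.769. Hspa5 at 0.17 ± 0.19, Hyou1 at 0.15 ± 0.23, Manf at 0.07 ± 0.23, Creld2 at -0.02 ± 0.26 and Syvn1 at -0.13 ± 0.23 differed between species by less than their standard error.

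**Figure D4:**
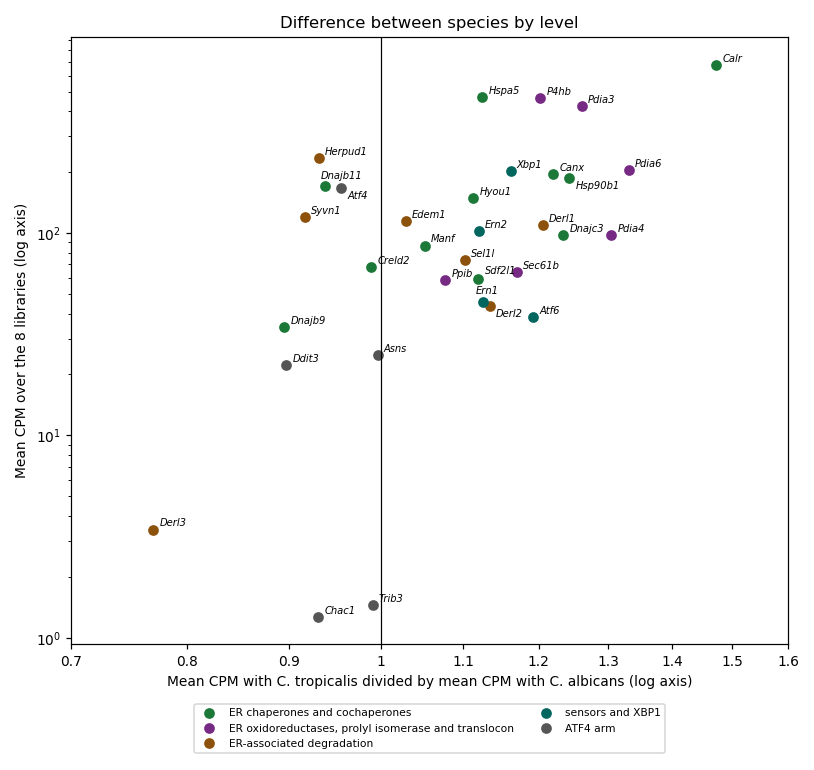
Mean CPM with C. tropicalis divided by that with C. albicans for each of the 33 genes (horizontal, log axis) against the mean CPM over the 8 libraries (vertical, log axis), coloured by role. Calr lies furthest right, the oxidoreductases lie right of 1, and the ATF4-arm genes lie at or left of 1.

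The motif groups were then set beside the levels. The 11 chaperone-arm genes with an ERSE or ERSE-II had a median log2 fold change of 0.30 with C. albicans and 0.50 with C. tropicalis. The 12 with a window and neither element had medians of 0.11 with C. albicans and 0.24 with C. tropicalis, and the 5 without a window had 0.08 and 0.24. For any Candida, all colonized libraries lay above control for 4 of the 11 (Hspa5, Creld2, Syvn1 and Dnajb11), 2 of the 12 (Pdia4 and Xbp1) and 2 of the 5 (Hyou1 and Manf). Over all genes, 3.61% lay above control in this way. Calr, Canx and Pdia6 carry an ERSE and had C. albicans libraries that overlapped control, so genes with the element were found on both sides.

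Other genes of the pathway were counted in the same way. None of the 43 genes of the secretory and folding machinery outside the list passed an adjusted p of 0.05 by edgeR or limma-voom, and DESeq2 called Mogs with C. tropicalis (1 of 43, against 1.41% of the genes it fitted) and Mogs and Sec24d for any Candida (2 of 43, against 1.1%). With C. tropicalis 36 of the 43 were above 0 (47.9% of all genes were), with a median of 0.19, and at an unadjusted p under 0.05 6 were higher (7.33% of all genes) and 0 lower (8.05%). With C. albicans 23 of 43 were above 0 (48.2% of all genes), with a median of 0.02, and 2 were higher (9.13% of all genes) and 1 lower (6.31%) at that level, so these counts with C. albicans lay near or under the shares of all genes. Of the 43, 19 had both C. tropicalis libraries above all controls (16% of all genes did) and 0 had both below (16.5%). With C. albicans 3 had all libraries above control (9.82% of all genes) and 6 below (9.57%). Mogs, the glucosidase that starts glycan trimming, had a log2 fold change of 0.53 ± 0.13 for any Candida (adjusted p = 0.227), and Sec24d and Sec23b, coat proteins of vesicles leaving the ER, had 0.42 ± 0.10 (adjusted p = 0.226) and 0.35 ± 0.11 (adjusted p = 0.310). Uggt1, the folding sensor of glycoproteins, had 0.53 ± 0.15 with C. tropicalis (adjusted p = 0.219), and Sec62, a translocation subunit, -0.31 ± 0.12 with C. albicans (adjusted p = 0.284). Between the species, C. tropicalis against C. albicans, the smallest p of this list were those of Sec62 (0.44 ± 0.13, adjusted p = 0.0991), Erp44 (0.39 ± 0.13, 0.125) and Stt3b (0.44 ± 0.15, 0.132). Of 16 further genes of ER-associated degradation, 12 were above 0 for any Candida (median 0.05), with 2 higher (6.25% of all genes) and 1 lower (5.49%) at an unadjusted p under 0.05. The ubiquitin-conjugating enzyme genes Ube2g2 and Ube2j1 had 0.41 ± 0.15 with C. albicans (adjusted p = 0.267) and 0.39 ± 0.12 with C. tropicalis (adjusted p = 0.237). Nploc4, a cofactor of the extracting ATPase p97, had 0.26 ± 0.11 for any Candida (adjusted p = 0.411), and Erlec1, an ER lectin, had -0.34 ± 0.15 (adjusted p = 0.413). Herpud2, a relative of Herpud1, had 0.26 ± 0.15 with C. albicans (adjusted p = 0.422), and Faf2, which recruits p97, had 0.18 ± 0.13 between the species (adjusted p = 0.456).

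Of 26 further ATF4 targets, 14 were above 0 and 12 below for any Candida (median 0.03), with 6 higher (6.25% of all genes) and 2 lower (5.49%) at an unadjusted p under 0.05 and 0 past an adjusted p of 0.05 by edgeR or limma-voom. The share of higher genes in this list was thus above that of all genes, with a median near 0. By groups that did not overlap, 10 of the 26 were higher with C. tropicalis (16% of all genes) and 4 lower (16.5%). For any Candida 3 were higher in this way (3.61% of all genes) and 1 lower (3.08%). DESeq2 called Cebpb and Ddit4 with C. albicans (1.71% of the genes it fitted were called), Stc2 with C. tropicalis (1.41%), Cebpb and Atf3 for any Candida (1.1%), and Stc2 between the species (6.5%). Cebpb, a partner of ATF4 that also answers to inflammation, had 1.69 ± 0.42 with C. albicans (adjusted p = 0.185), and Slc7a5, a transporter of large amino acids, had 0.60 ± 0.18 for any Candida (adjusted p = 0.285). Ddit4, an inhibitor of mTORC1, lay in the other direction at -0.40 ± 0.12 (adjusted p = 0.286), and Stc2, a secreted glycoprotein, at -1.88 ± 0.56 with C. tropicalis (adjusted p = 0.228). Sesn2, a stress-induced regulator of mTORC1, had 0.54 ± 0.14 with C. albicans (adjusted p = 0.199). Mthfd2, of mitochondrial folate metabolism, and Wars, a tRNA synthetase, had 0.68 ± 0.21 (adjusted p = 0.236) and 0.50 ± 0.17 (adjusted p = 0.264) with C. tropicalis. Atf5, a transcription factor related to ATF4, had -0.42 ± 0.15 between the species (adjusted p = 0.140). The 9 genes of the eIF2α kinases, phosphatases and their substrate were divided 4 above and 5 below 0 for any Candida (median -0.0023), with 0 at an unadjusted p under 0.05 and 0 called by DESeq2 or limma-voom. Ppp1r15b, a phosphatase subunit acting on eIF2α, had 0.38 ± 0.17 (adjusted p = 0.442), and Eif2ak1, the haem-sensing kinase, had -0.29 ± 0.13 with C. albicans (adjusted p = 0.330). Eif2s1, which encodes eIF2α, had 0.37 ± 0.16 with C. tropicalis (adjusted p = 0.317), and of the exchange factor's subunits Eif2b5 had 0.26 ± 0.15 with C. tropicalis (adjusted p = 0.410) and Eif2b1 0.41 ± 0.15 between the species (adjusted p = 0.145). Among 8 relatives of ATF6 and the proteases that cleave them (median 0.04), Creb3l1 had 0.62 ± 0.25 (adjusted p = 0.385), Atf6b 0.53 ± 0.21 (adjusted p = 0.380) and Creb3l4 -0.41 ± 0.14 (adjusted p = 0.313), all for any Candida, and Creb3l2 had 0.53 ± 0.18 with C. albicans (adjusted p = 0.259). Mbtps1, the site-1 protease, had 0.19 ± 0.14 between the species (adjusted p = 0.468).

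The sums of other groups of genes stood apart from control as well, and the plot of summed levels shows them side by side. The 11 chaperones and cochaperones summed to 2077, 2070.2 and 2704 CPM with C. albicans and 2761 and 2762 CPM with C. tropicalis, against 1732, 1917 and 1544 CPM in control. The ATF4 arm summed to 203, 253 and 248 CPM with C. albicans and 203 and 245 CPM with C. tropicalis, against 206, 208 and 173 CPM in control. Only the sums of the chaperones stood apart from control in these 2 lists.

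The 13 genes of the cytosolic heat shock response summed to 5601, 8154 and 7039 CPM with C. albicans and 8215 and 6834 CPM with C. tropicalis, against 3051, 3756 and 3249 CPM in control. Hsph1, an HSP110 chaperone, rose with C. albicans (2.48 ± 0.28, adjusted p = 0.0227), and Hspa8, the constitutive cytosolic HSP70, rose with C. tropicalis (1.80 ± 0.21, adjusted p = 0.0409). The 17 circadian clock genes summed to 1561, 1424 and 1471 CPM with C. albicans and 1376 and 1051 CPM with C. tropicalis, against 768, 843 and 793 CPM in control. By edgeR, 4 of the 17 passed an adjusted p of 0.05 with C. albicans, 3 higher and 1 lower (0.0435% of all genes passed). The smallest was that of Arntl (adjusted p = 0.00941). With C. tropicalis 1 passed, Per2 (adjusted p = 0.0134), against 0.031% of all genes. The sums of both lists lay above control in every colonized library, but not every gene did. Of the 17 clock genes, 13 were above 0 and 4 below with C. albicans, and 10 above and 7 below with C. tropicalis. Of the 13 heat shock genes, 13 were above 0 with C. albicans, and 12 above and 1 below with C. tropicalis. Over all genes, 48.2% were above 0 with C. albicans and 47.9% with C. tropicalis. The part of either list in the ER chaperone result was not tested.

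Cell type markers gave another order, and none of the 10 goblet cell, 10 plasma cell and 12 smooth muscle markers was at 0 in any library. Goblet cell markers summed to 23108, 17445 and 20645 CPM with C. albicans and 18117 and 15816 CPM with C. tropicalis, against 16195, 21259 and 13833 CPM in control, so the sums overlapped. Of the 10 goblet cell markers, 7 were above 0 and 3 below with C. albicans (48.2% of all genes were above). At an unadjusted p under 0.05 by edgeR, 3 were higher (9.13% of all genes) and 0 lower (6.31%). Only 1 had all C. albicans libraries above control (9.82% of all genes did). Spdef, a transcription factor of goblet cells, had 128, 262 and 225 CPM with C. albicans and 108 and 78.0 CPM with C. tropicalis, against 81.1, 73.7 and 61.0 CPM in control, with a log2 fold change of 1.51 ± 0.26 with C. albicans (adjusted p = 0.0964). The part of goblet cells in the ER chaperone result was not tested. Plasma cell markers, from cells that also carry much ER, summed to 4271, 2428 and 1538 CPM with C. albicans and 2472 and 1559 CPM with C. tropicalis, against 868, 1992 and 2180.4 CPM in control, and these overlapped too. Smooth muscle markers summed to 10047, 29006 and 16313 CPM with C. albicans and 3922 and 4982 CPM with C. tropicalis, against 13659, 11171 and 6841 CPM in control. C. tropicalis lay below all other libraries, the group in which Calr and the oxidoreductases stood highest. All 10 enteric neuron and glia markers and all 8 fibroblast markers also had log2 fold changes below 0 with C. tropicalis against control. Among epithelial genes, Slc9a3, a sodium-proton exchanger, had 12.5 and 10.2 CPM with C. tropicalis, against 1052, 1517 and 1843 CPM with C. albicans, and control 3 was as low at 13.6 CPM, with 1117 and 284 CPM in control 1 and control 2. Car1, a carbonic anhydrase, had 2231 and 2255 CPM with C. tropicalis, against 306, 432 and 179.5 CPM with C. albicans. Control 3 again lay near C. tropicalis at 1602 CPM. Between the species, Slc9a3 and Car1 had the lowest and highest log2 fold changes of the 10 colonocyte markers (-7.02 and 2.87). Of those 10, 4 were above 0 and 6 below (53.7% of all genes were above), with a median of -0.14. The part of tissue composition in the difference between the species was not tested. When the edgeR fit took in a smooth muscle score, Calr's log2 fold change between the species was 0.42 (adjusted p = 0.769). In that fit the ATF4-arm median was 0.38 between the species and 0.46 for C. tropicalis against control. There 4 of the 33 genes had an unadjusted p under 0.05 between the species, and the share of all genes is not given.

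**Figure D5:**
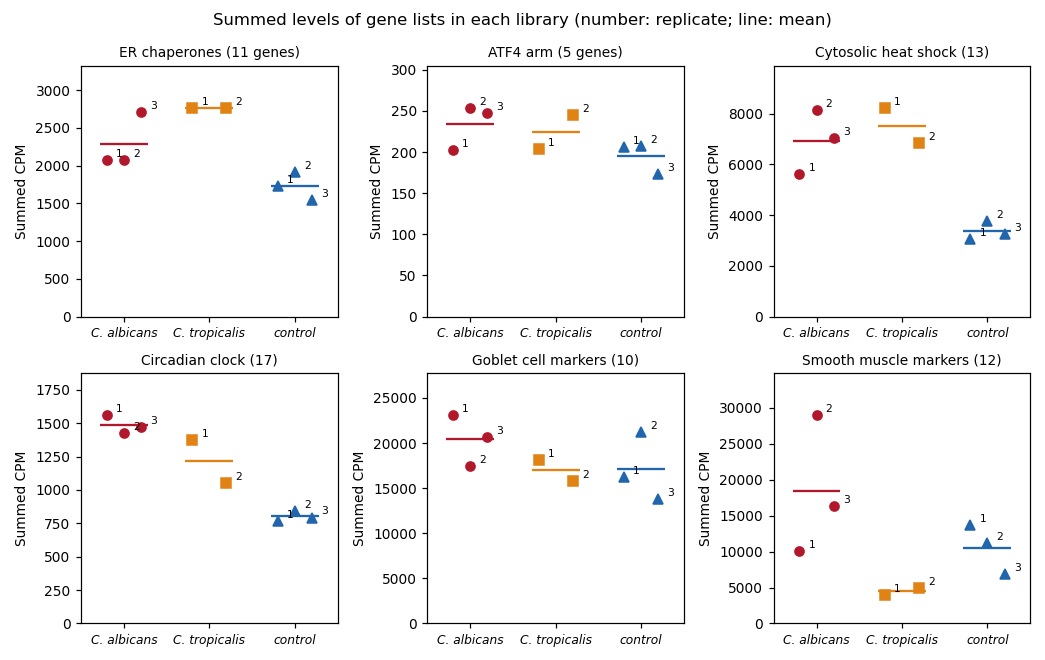
Summed CPM of 6 gene lists in each library, with the replicate number beside each point and the group mean as a line; C. albicans, C. tropicalis and control run from left to right. The sums of ER chaperones, cytosolic heat shock and circadian clock genes are higher in every colonized library than in any control. Those of the ATF4 arm and goblet cell markers overlap, and those of smooth muscle markers are lowest with C. tropicalis. Single genes of a list need not follow its sum.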

How the data were processed

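RNA from 8 colon libraries was made with the NEBNext Ultra RNA kit, per the labels' protocols, a kit that does not keep strand. The deposited table holds raw read counts as whole numbers for 52636 Ensembl identifiers. Build mm10 and the tools TopHat2 2.0.12, HTSeq (its version written as 6.1) and DESeq 1.18.0 come from the submitters' processing notes. Which annotation and strand setting the counting used is not given in the sources used here. Gene symbols, positions and exon lengths came from GENCODE M21 on the same build, and 233 identifiers without a symbol held 0.00317% of counts.

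Counts were analysed with edgeR 4.0.16 in R 4.3.3: TMM normalization, filterByExpr on the 3 groups (16107 genes kept), 1 quasi-likelihood fit of all 8 libraries, and Benjamini-Hochberg adjustment over all genes tested, at a threshold of 0.05. A standard error (SE) is the size of the log2 fold change divided by the square root of F. CPM use TMM-scaled totals, and libraries count as apart when groups do not overlap in CPM. The test was checked on simulated data. Alternatives were DESeq2 1.42.0, limma-voom (limma 3.58.1), other normalizations and filters, only the groups compared, a replicate block, a smooth muscle covariate and each library left out. No sample was dropped as a duplicate.

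The 33 genes, the other lists and the motifs were chosen with earlier results of these data known. Genes given with values in every library are those with the 6 smallest p in a contrast, the sensors, Xbp1 and the ATF4 arm, plus Derl3, added after its values were seen. Of each other pathway list, genes among the 3 smallest p in a contrast are named.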

Additional observations from a re-analysis of the deposited data

How the results depend on the processing

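No named log2 fold change changed sign with an adjusted p under 0.05 in the main fit or the alternative. None of the 33 genes passed in the main fit, so this rule could show few changes. Some signs did change below it. With C. albicans and a library left out, Calr ran from -0.12 to 0.063 and Trib3 from -0.31 to 0.39. Of 268 alternative values of the counts and medians, 245 kept within their limits. For medians the limit was the SD between libraries, 0.10 for the chaperone arm and 0.19 for the ATF4 arm. An ATF4-arm median could thus change sign and still be kept. DESeq2 called 5 of the 33 genes with C. albicans, 5 with C. tropicalis, 7 for any Candida and 1 (Calr) between the species, where edgeR called 0. With no filter on low counts edgeR called 2, 1 and 3 genes for the first 3 of these. With the smooth muscle score in the fit it called 1 for any Candida, 4 genes had an unadjusted p under 0.05 between the species, and the ATF4-arm median was 0.46 for C. tropicalis against control and 0.38 between the species. With only the groups compared, 6 genes had an unadjusted p under 0.05 between the species, and this fit was not run for any Candida, which uses all groups. Apart from DESeq2, shares of all genes are not given for these settings, so the counts do not show whether other genes moved alike. The cause of these differences was not tested.

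Leaving out each library in turn, genes past an adjusted p of 0.05 ranged from 0 to 4 with C. albicans and from 0 to 1 with C. tropicalis. Genes at an unadjusted p under 0.05 ranged from 8 to 14 with C. tropicalis and from 1 to 5 between the species. Chaperone-arm medians ranged from 0.10 to 0.25 with C. albicans and from 0.18 to 0.34 for any Candida, and the ATF4-arm median from 0.049 to 0.32 with C. tropicalis and from -0.22 to 0.08 between the species. Where a group keeps 1 library, it was taken to vary as the other groups do. Deviations of same-numbered libraries from their group means had correlations of r from -0.392 to 0.156. With 2 or 3 libraries in a group, these values cannot show whether the numbers pair libraries, and the labels do not say. With the replicate number as a block, 0 genes passed an adjusted p of 0.05 in any contrast, and 8, 12, 10 and 2 genes had an unadjusted p under 0.05 with C. albicans, with C. tropicalis, for any Candida and between the species. Here too, and in the fits with a library left out, the shares of all genes are not given. Trib3 and Chac1 had the lowest levels of the 33 genes, and counting error weighs most on such levels.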

Other observations

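Within the cytosolic heat shock list, Hsp90aa1, the inducible cytosolic HSP90, had 3 low libraries spread over the groups and was chosen for mention after its values were seen. It had 13.6, 408 and 16.6 CPM with C. albicans and 501 and 413 CPM with C. tropicalis, against 7.94, 177 and 154 CPM in control. The low libraries were C. albicans 1, C. albicans 3 and control 1. Its relative Hsp90ab1 had 1619, 2063 and 2238 CPM with C. albicans and 2524 and 2271 CPM with C. tropicalis, against 1204, 1325 and 1351 CPM in control, with no such split.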
